A study of Mus musculus with 10 samples.

Results

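Flt3, Kit and Csf1r encode the class III receptor tyrosine kinases of blood cells, and their rows, 3 of the 16771 genes listed, were read by gene symbol in the deposited expression tables. RNA had been sequenced from bone marrow of C57BL/6 mice in 10 libraries, 2 for each of 5 groups, which the submitters describe as biological replicates. HSPC are haematopoietic stem and progenitor cells, here the lineage-negative cells left by a magnetic Lineage Cell depletion kit, and neutrophils were taken with a Neutrophil Isolation Kit. The DM HSPC came from Npm1flox-cA/+;Flt3ITD/+;Mx1-Cre+ mice, which carry both leukaemia alleles. The Npm1c HSPC came from Npm1flox-cA/+;Mx1-Cre+ mice, in which a floxed mutant nucleophosmin allele is switched on by Mx1-Cre, a recombinase that responds to interferon and acts in many tissues. The Flt3-ITD HSPC came from Flt3ITD/+ mice, in which an internal tandem duplication is knocked into the endogenous receptor gene. WT neutrophils and WT HSPC came from wild-type (WT) mice, and every mutant allele was heterozygous. Mx1-Cre is named only in the DM and Npm1c genotypes, so its part and that of the Npm1 allele cannot be told apart. The labels give neither age nor sex nor the time after Cre induction.

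Receptors of this class are bound by paired ligands, pair up themselves and phosphorylate each other, which passes signals to the RAS, PI3-kinase and STAT5 routes. FLT3 binds FLT3 ligand and is known for its part in multipotent and lymphoid-primed progenitors and in dendritic cell development. KIT binds stem cell factor and serves stem cells, early erythroid cells and mast cells, while CSF1R binds CSF1 and interleukin 34 and serves monocytes and macrophages. An internal tandem duplication lets FLT3 signal without ligand, and mutant nucleophosmin and this duplication often occur together in acute myeloid leukaemia.

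Levels are in RPKM, read counts scaled to gene length and to the size of the library, so that levels of different genes are compared per length. The library totals behind them, recovered from the values, ran from 40783015 to 57824373 reads, and 60.9% to 81.3% of those reads lay on listed genes. A changing share of reads outside the listed genes moves every gene, and the median log2 change of all tested genes was below 0 in each comparison with WT HSPC. Cell type markers matched the labels in part. The summed level of 14 late neutrophil markers ran from 101056 to 101359 RPKM in WT neutrophils and from 61.2 to 80.1 RPKM in WT HSPC. In WT HSPC the stem cell markers Mecom and Fgd5 were under 0.1 RPKM, while Cd34 stood at 15.3 and 15.7 RPKM. The DM libraries, labelled as the same lineage-negative population, held 5730 and 5808 RPKM of 15 dendritic cell markers, against 633 and 651 RPKM in WT HSPC. Replicate pairs also differed in likeness. Among genes of intermediate read counts, the chi-square per gene between replicates was 1.21 in DM, 4.09 in Npm1c, 6.10 in Flt3-ITD, 1.17 in neutrophils and 1.33 in WT HSPC, where sampling noise alone gives about 1. With genes of high read counts included, Kit among them, it was 3.44 in DM, 10.8 in Npm1c, 32.5 in Flt3-ITD, 2.31 in neutrophils and 5.03 in WT HSPC. Npm1c replicate 2 and Flt3-ITD replicate 1 held 12.5 and 13.4 RPKM over 4 Y-linked genes, and each of the other 8 libraries at most 0.00813 RPKM. Results of the groups with single alleles are therefore also given without both of these libraries.

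In GENCODE M21 on GRCm38, Flt3 (ENSMUSG00000042817) lies on the minus strand at chr5:147330741-147400489, with 24 exons in its longest coding transcript. Kit (ENSMUSG00000005672) lies on the plus strand of the same chromosome at chr5:75574916-75656722, with 21. The gene lengths implied by the deposited values were 7574 bases for Flt3, 18908 for Kit and 8528 for Csf1r, against longest coding transcripts of 3657, 5241 and 4701 bases. For Flt3 and Kit these lengths were close to the sum over all annotated transcripts, 7608 and 18970 bases, so a gene with more transcripts is scaled down further. An antisense gene, Gm26597, overlaps the start of Flt3, and Hmgxb3 overlaps the end of Csf1r on the opposite strand. Whether the authors' counting used the strand is not given in the sources used here, so reads from these neighbours cannot be told apart. Reads from the normal and the duplicated Flt3 allele are summed in 1 row, and so Flt3 levels do not check the Flt3-ITD labels.

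The sequences just upstream of Flt3 and Kit are shown because these genes moved in opposite directions in DM HSPC, and levels of factors known to regulate them are given further on. They come from RefSeq on GRCm38.p6 and read 5′ to 3′ along each gene, the Flt3 window at chr5:147400490-147400739 (minus strand) and the Kit window at chr5:75574737-75574915 (plus strand). Capitals mark matches to 8 short motifs searched on both strands.
Flt3: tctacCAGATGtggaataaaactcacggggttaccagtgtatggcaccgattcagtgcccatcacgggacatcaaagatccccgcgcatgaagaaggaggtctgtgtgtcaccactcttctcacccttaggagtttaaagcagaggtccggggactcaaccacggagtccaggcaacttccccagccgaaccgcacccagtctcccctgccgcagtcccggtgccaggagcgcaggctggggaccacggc
Kit: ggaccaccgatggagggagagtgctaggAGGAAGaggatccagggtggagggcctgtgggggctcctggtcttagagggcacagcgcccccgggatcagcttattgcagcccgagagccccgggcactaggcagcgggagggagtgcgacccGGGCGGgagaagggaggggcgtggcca
The Flt3 window held 1 match, an E-box (CAGNTG), which 44.8% of 32851 mouse promoter windows of that length hold. The Kit window held an ETS motif (AGGAAG), found in 21.4% of windows of its length, and a GC box (GGGCGG), found in 20.9%. Neither window held the RUNX motif TGTGGT, which occurs in 14.0% of windows of the Flt3 length, or the motif GATAA of the GATA factors, which occurs in 22.6%. The same held for the MEIS motif TGACAG (15.9% of windows), the C/EBP motif TTGCNNAA (9.56%) and the TATA box letters TATAAA (12.4%). The matches shown do not overlap. A match is a description of these letters only.

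Flt3 was highest in DM HSPC by a wide margin. Its level was 44.2 and 44.3 RPKM in the DM libraries, 3.44 and 3.35 RPKM in Npm1c, 5.12 and 3.71 RPKM in Flt3-ITD, 0.706 and 0.826 RPKM in WT neutrophils and 5.35 and 5.22 RPKM in WT HSPC. No library of any group overlapped those of another, but the Flt3-ITD replicates spread over most of the gap between Npm1c and WT HSPC. With 2 libraries a group, such separation was common. Of all listed genes, 30.6% lay above both WT HSPC libraries in both DM libraries and 53.7% below. The group means were 44.2 ± 0.0388 RPKM in DM, 3.40 ± 0.0622 in Npm1c, 4.41 ± 0.993 in Flt3-ITD, 0.766 ± 0.0852 in neutrophils and 5.29 ± 0.0920 in WT HSPC (SD, n = 2 each). From high to low the order was DM, WT HSPC, Flt3-ITD, Npm1c and neutrophils, and Flt3-ITD differed from each neighbour by about its own SD. Between 218 and 16236 reads stood behind each value. The fewest were in neutrophils, where 218 and 269 reads have exact 95% Poisson intervals of 190.0 to 249 and 238 to 303, which cover counting error only.

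Kit was highest in WT HSPC and in Npm1c HSPC, and lowest in neutrophils. It was measured at 8.70 and 8.65 RPKM in DM, 14.3 and 14.1 RPKM in Npm1c, 12.9 and 10.9 RPKM in Flt3-ITD, 1.86 and 1.93 RPKM in neutrophils and 14.9 and 14.5 RPKM in WT HSPC. The groups did not overlap, and the DM libraries lay below every other HSPC library. Of all listed genes, 53.7% likewise lay below both WT HSPC libraries in both DM libraries. Means were 8.68 ± 0.0368 RPKM in DM, 14.2 ± 0.143 in Npm1c, 11.9 ± 1.36 in Flt3-ITD, 1.89 ± 0.0483 in neutrophils and 14.7 ± 0.224 in WT HSPC (SD, n = 2 each). In the order WT HSPC, Npm1c, Flt3-ITD, DM and neutrophils, the first pair of neighbours was not separated by the test given below. The reads behind these values numbered 1434 to 15907.

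Csf1r (ENSMUSG00000024621), which lies on the plus strand at chr18:61100598-61132149 with 21 exons in its longest coding transcript, was the only receptor of the 3 with its highest level in neutrophils. It stood at 8.001 and 8.07 RPKM in DM, 3.56 and 3.60 RPKM in Npm1c, 11.7 and 7.61 RPKM in Flt3-ITD, 13.4 RPKM in both neutrophil libraries and 8.99 and 8.96 RPKM in WT HSPC. The Npm1c libraries were the lowest, and the Flt3-ITD libraries lay on either side of those of DM and of WT HSPC. Means were 8.04 ± 0.0516 RPKM in DM, 3.58 ± 0.0245 in Npm1c, 9.67 ± 2.92 in Flt3-ITD, 13.4 ± 0.0356 in neutrophils and 8.97 ± 0.0272 in WT HSPC (SD, n = 2 each). In the order neutrophils, Flt3-ITD, WT HSPC, DM and Npm1c, the middle 3 groups did not differ beyond the spread of Flt3-ITD. Behind each value were 1639 to 5497 reads.

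**Figure D1:**
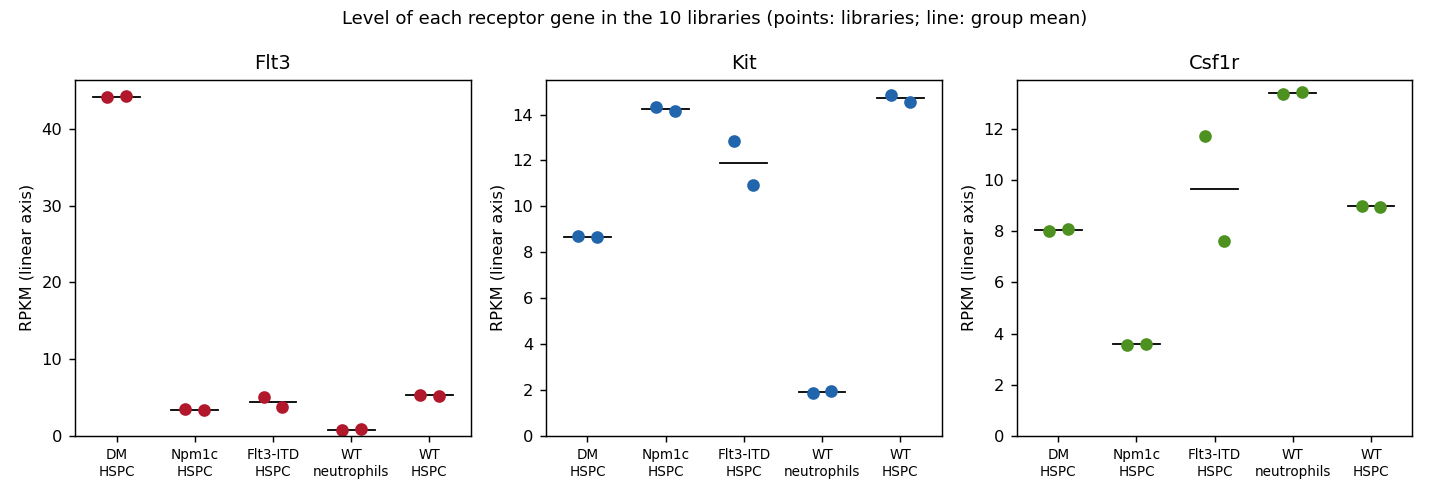
RPKM (linear axes starting at 0) of Flt3, Kit and Csf1r in the 10 libraries, with a point for each library and a line at the mean of each group. Flt3 stands at 44.2 and 44.3 RPKM in DM HSPC and at no more than 5.35 RPKM elsewhere, Kit is lowest in neutrophils, and Csf1r is lowest in Npm1c HSPC.

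The balance between the receptors differed by group. Flt3 was 5.08 and 5.12 times as high as Kit in the DM libraries, against 0.360 and 0.359 times in WT HSPC, and it lay between 0.237 and 0.429 times Kit in the other 6 libraries. Per length of the longest coding transcript, which avoids the summed transcript lengths, these ratios were 2.92 and 2.94 in DM and 0.207 and 0.206 in WT HSPC. Flt3 was therefore above Kit in DM alone on either scale. Csf1r was 7.20 and 6.97 times as high as Kit in neutrophils, against 0.605 and 0.616 times in WT HSPC. Per coding length the levels were 91.6 ± 0.0804 in DM and 10.95 ± 0.190 in WT HSPC for Flt3, 31.3 ± 0.133 and 53.1 ± 0.807 for Kit, and 14.6 ± 0.0936 and 16.3 ± 0.0493 for Csf1r (SD, n = 2 each).

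The DM against WT comparison asks how HSPC with both alleles and Mx1-Cre differ from wild-type HSPC. Flt3 rose by 2.95 ± 0.12 (log2, standard error) with limma on log2(RPKM + 0.5), a 7.73-fold change on that scale (adjusted p = 1.06e-06). The plain ratio of mean RPKM was 8.36. Kit fell by 0.73 ± 0.075 (adjusted p = 7.41e-05). Csf1r had a change of -0.15 ± 0.17 (adjusted p = 0.422). Thus 2 of the 3 receptors passed in a comparison in which 82.8% of 9702 tested genes passed, 23.9% of them higher and 58.9% lower, or 38.0% and 39.8% after median-of-ratios scaling. Since the median gene moved by -0.34, Flt3 lay 3.29 above it and Kit 0.39 below it. Only 251 tested genes lay farther from the median than Flt3, against 5021 for Kit and 7257 for Csf1r. After median-of-ratios scaling Kit fell by 0.39, and Csf1r turned to 0.18 (adjusted p = 0.236). Csf1r passed the threshold at the same -0.15 with only DM and WT HSPC fitted (adjusted p = 0.00333) and without either Flt3-ITD library (adjusted p = 0.00639 and 0.00623).

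In bulk RNA, fewer cells of a type and less RNA per cell cannot be told apart, here and in the comparisons that follow. Npm1c HSPC had less Csf1r and less Flt3 RNA than WT HSPC. Csf1r fell by 1.21 ± 0.17 (adjusted p = 0.00162), a 0.431-fold level on the fitted scale. Flt3 fell by 0.57 ± 0.12 (adjusted p = 0.00728). The value for Kit was -0.04 ± 0.075 (adjusted p = 0.622). In this comparison 60.6% of tested genes passed, 2.49% higher and 58.1% lower, or 18.3% and 20.1% after median-of-ratios scaling, and the median gene moved by -0.26. Relative to that gene Csf1r was at -0.95, with 101 of 9702 genes farther out, Flt3 at -0.31 and Kit at 0.22. Under median-of-ratios scaling Csf1r fell by 0.94 and Flt3 by 0.31, whereas Kit turned to 0.24 and passed (adjusted p = 0.00918). Without both libraries with Y-linked reads the changes were -1.22 for Csf1r, -0.55 for Flt3 and -0.03 for Kit.

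In Flt3-ITD HSPC no receptor departed far from WT HSPC. Kit fell by 0.30 ± 0.075 (adjusted p = 0.0236), the only call among the 3, where 33.1% of tested genes passed, 1.86% higher and 31.3% lower, or 8.36% and 9.62% after median-of-ratios scaling. That call was lost with median-of-ratios scaling (-0.13, adjusted p = 0.0982), with equal totals over the listed genes (-0.15, adjusted p = 0.0821), with only the 2 groups fitted (adjusted p = 0.0970) and without any 1 of the WT HSPC or DM libraries. Flt3 had a change of -0.25 ± 0.12 (adjusted p = 0.151), and without Flt3-ITD replicate 1 it fell by 0.46 (adjusted p = 0.000776). Csf1r had a change of 0.07 ± 0.17 (adjusted p = 0.768). It was at -0.22 without Flt3-ITD replicate 1 and at 0.37 without replicate 2, so its sign rested on which library was kept. Flt3-ITD replicate 1 held 232 RPKM of 14 monocyte markers and replicate 2 held 142 RPKM, against 158 RPKM in both WT HSPC libraries. The part of these markers in the difference was not tested.

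**Figure D2:**
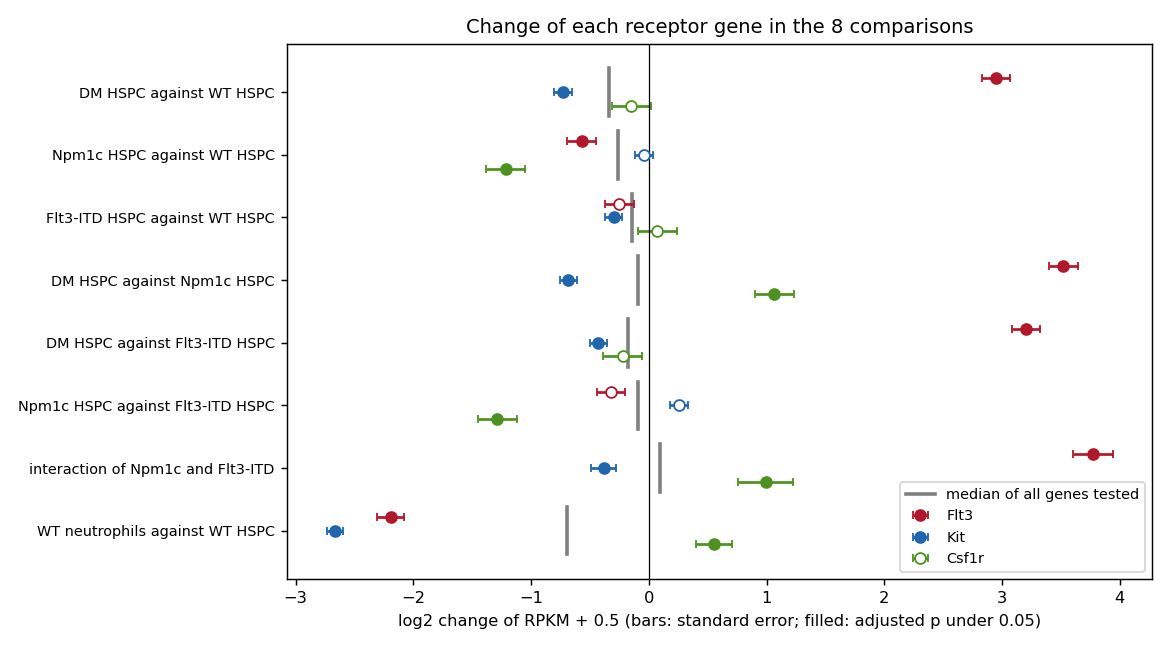
Log2 change of RPKM + 0.5 for Flt3, Kit and Csf1r in the 8 comparisons, with standard errors as bars and filled points for adjusted p under 0.05; the grey mark is the median of all genes tested. Flt3 lies between 2.95 and 3.77 in the comparisons of DM and in the interaction, and Kit lies below the median gene in each of these.

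Set against either single allele, DM HSPC kept the same picture for Flt3 and Kit. Flt3 was higher by 3.52 ± 0.12 than in Npm1c (adjusted p = 4.5e-07) and by 3.20 ± 0.12 than in Flt3-ITD (adjusted p = 7.87e-07). Kit fell by 0.68 ± 0.075 against Npm1c (adjusted p = 0.000121) and by 0.43 ± 0.075 against Flt3-ITD (adjusted p = 0.00144). Csf1r was 1.06 ± 0.17 higher than in Npm1c (adjusted p = 0.000785), and its value against Flt3-ITD was -0.22 ± 0.17 (adjusted p = 0.252). In both comparisons 77.4% of tested genes passed. Of the tested genes, 34.4% were higher and 43% lower against Npm1c, and 28.6% were higher and 48.8% lower against Flt3-ITD, or 38.6% and 40.04% after median-of-ratios scaling. Without both libraries with Y-linked reads Csf1r against Flt3-ITD was at 0.07, and without Flt3-ITD replicate 2 alone it fell by 0.52 (adjusted p = 3.58e-05). All these comparisons share the DM libraries.

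The interaction term asks whether DM departs from the sum of both single-allele changes, as DM minus Npm1c minus Flt3-ITD plus WT HSPC. For Flt3 it was 3.77 ± 0.17 (adjusted p = 3.45e-06), with 163 of 9702 genes farther from the median gene. For Csf1r it was 0.99 ± 0.23 (adjusted p = 0.0079) and for Kit -0.38 ± 0.11 (adjusted p = 0.0152). All 3 receptors passed, in a test that 66.8% of genes passed, 39.2% above 0 and 27.6% below, or 31.3% and 44.5% with equal totals over the listed genes. Without both libraries with Y-linked reads the values were 3.96, 1.30 and -0.28 for Flt3, Csf1r and Kit. The call for Kit was lost with a Y-linked term (-0.28, adjusted p = 0.0582), without WT HSPC replicate 2 (adjusted p = 0.0543) and without DM replicate 1 or 2 (adjusted p = 0.0505 and 0.0539). Npm1c HSPC set directly against Flt3-ITD HSPC had less Csf1r, by -1.29 ± 0.17 (adjusted p = 0.00619), with 38 genes farther out. Of the tested genes 17.5% passed there, 2.48% higher and 15% lower, or 7.90% and 12.9% after median-of-ratios scaling. The Csf1r call was lost with only these 2 groups fitted (adjusted p = 0.0630). The values for Flt3 and Kit were -0.32 ± 0.12 (adjusted p = 0.111) and 0.26 ± 0.075 (adjusted p = 0.0578), and several other settings put Kit past the threshold.

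WT neutrophils had far less Kit and Flt3 RNA than WT HSPC. Kit fell by 2.67 ± 0.070 (adjusted p = 2.48e-09) and Flt3 by 2.19 ± 0.12 (adjusted p = 1.77e-07). Csf1r rose by 0.55 ± 0.15 (adjusted p = 0.00813). The background was 91.2% of 10174 genes, 28.4% higher and 62.8% lower, or 45.8% and 44.9% after median-of-ratios scaling. The median gene moved by -0.70, so relative to it Kit was at -1.97, Flt3 at -1.50 and Csf1r at 1.25. Median-of-ratios scaling gave -1.92 for Kit, -1.55 for Flt3 and 1.38 for Csf1r. The neutrophil libraries also held basophil genes. Mcpt8, a basophil protease, stood at 138 and 139 RPKM, against 142 and 148 RPKM in WT HSPC. The 11 measured mast cell and basophil markers summed to 561 and 572 RPKM, against 478 and 499 RPKM in WT HSPC. Of the 11, 3 were above WT HSPC in both neutrophil libraries and 7 below, against 27.7% and 56.7% of all listed genes. The 14 monocyte markers summed to 351 and 355 RPKM in neutrophils, against 158 RPKM in WT HSPC. Of these 14, 6 lay above WT HSPC in both neutrophil libraries and 7 below, where 27.7% of all listed genes lay above and 56.7% below. The part of these markers in the Kit and Csf1r values was not tested.

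The other members of the receptor class and the ligands were low in all libraries. Pdgfra, a receptor for platelet-derived growth factor, averaged at most 0.0233 RPKM in any group. Pdgfrb, the related receptor of mesenchymal cells, averaged 0.425 ± 0.0102 RPKM in DM, 1.21 ± 0.178 in Npm1c, 1.17 ± 0.679 in Flt3-ITD, 0.160 ± 0.0247 in neutrophils and 1.20 ± 0.05003 in WT HSPC (SD, n = 2 each). It fell by 0.88 ± 0.24 in DM against WT HSPC (adjusted p = 0.0116). Among the ligands, Flt3l averaged 0.406 RPKM in DM and 0.549 RPKM in WT HSPC, and Kitl, the stem cell factor gene, 0.116 and 0.151 RPKM. Il34 averaged at most 0.0319 RPKM. Csf1 was the one ligand that reached the minimum for testing, through the neutrophils alone. It averaged 2.00 ± 0.0319 RPKM in neutrophils and 0.709 ± 0.0166 RPKM in WT HSPC (SD, n = 2 each). Because the neutrophils alone let it pass, its difference is given without a test. In DM it averaged 0.143 ± 0.0144 RPKM.

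Kinases and adaptors that carry the signal of these receptors were described as a list of 25 genes, of which 24 were tested. In DM against WT HSPC 10 rose, 8 fell and 6 did not pass, where 23.9% of all tested genes rose and 58.9% fell. The list's median change was 0.06, against -0.34 for all genes. After median-of-ratios scaling 16 rose and 7 fell, where 38.0% of all tested genes were higher and 39.8% lower. Of the 10 that rose without scaling, 1 reached the minimum only through DM and had to differ, which leaves 9. No gene was left out of the scaled count, so that count still holds the gene that had to differ. The Src-family kinases Lyn and Fyn were among the genes that rose. Lyn stood at 32.1 and 32.0 RPKM in DM and at 7.64 and 7.56 RPKM in WT HSPC, a rise of 2.01 ± 0.064 (adjusted p = 3.63e-07). Fyn rose by 1.27. Stat5a, a transcription factor of the STAT5 route, stood at 4.54 and 4.63 RPKM in DM and at 8.67 and 8.77 RPKM in WT HSPC, and fell by 0.86 ± 0.050 (adjusted p = 4.6e-06). In Npm1c 17 relay genes fell and 7 did not pass, where 58.1% of all genes fell. After median-of-ratios scaling 8 fell and 4 rose there, where 20.1% of all tested genes fell and 18.3% rose. In Flt3-ITD 7 fell and 17 did not pass, where 31.3% of all genes fell, so the share was near that of all genes. With that scaling 4 fell and 1 rose in Flt3-ITD, where 9.62% of all tested genes fell and 8.36% rose. Lyn was also higher in neutrophils than in WT HSPC, by 2.75 (adjusted p = 9.21e-10), at 54.1 and 54.0 RPKM.

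Inhibitors of receptor signalling formed a list of 21 genes, 20 of them tested. In DM against WT HSPC 13 rose, 6 fell and 1 did not pass. After median-of-ratios scaling 14 rose and 3 fell, where 38.0% of all tested genes were higher and 39.8% lower. Genes that had to differ were not left out of that scaled count, so it cannot be weighed against those shares. Cish, Socs1, Socs2 and Socs3, feedback inhibitors of cytokine receptors, reached the minimum only through DM, and Spry4 only through WT HSPC, so these 5 had to differ. Of the other 15, 9 rose, 5 fell and 1 did not pass, with a median change of 0.62, where 23.9% of all tested genes rose, 58.9% fell and the median was -0.34. Cish, a target of STAT5, stood at 1.62 and 1.53 RPKM in DM and at 0.129 and 0.108 RPKM in WT HSPC, which is given without a test. Ptprc, which encodes the CD45 phosphatase of leukocytes, stood at 16.9 and 16.6 RPKM in DM and at 2.74 and 2.71 RPKM in WT HSPC (2.42 ± 0.14, adjusted p = 4.01e-06). Spry4, a feedback inhibitor of the RAS route, was at 0.00981 and 0.0405 RPKM in DM, 0.688 and 0.629 RPKM in Npm1c, 0.246 and 0.356 RPKM in Flt3-ITD and 1.03 and 1.06 RPKM in WT HSPC, also without a test. Socs2 was at 1.07 and 0.568 RPKM in Flt3-ITD and at 0.0474 and 0.0340 RPKM in WT HSPC, and rose by 1.26 ± 0.16 (adjusted p = 0.0038), while its level in Npm1c was 0.0533 and 0.0385 RPKM. Leaving out Spry4, 2 of 19 brakes rose and 5 fell in Flt3-ITD, where 1.86% of all genes rose and 31.3% fell. In Npm1c 10 of the 19 fell and 9 did not pass, where 58.1% of all genes fell, so the share that fell was near or below that of all genes. After median-of-ratios scaling, 2 rose and 2 fell in Flt3-ITD, where 8.36% of all tested genes rose and 9.62% fell. In Npm1c 2 rose and 5 fell with that scaling, where 18.3% of all tested genes rose and 20.1% fell.

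Transcription factors known to act on these receptor genes, or with the factors that do, formed a list of 20, of which 16 were tested among HSPC. In DM against WT HSPC 3 rose, 10 fell and 3 did not pass, or 4 rose and 8 fell after median-of-ratios scaling. With 23.9% of all tested genes higher and 58.9% lower, the shares without scaling were near the background. With that scaling 38.0% of all tested genes were higher and 39.8% lower. The median change was -0.67, against -0.34 for all genes. Irf8, a factor of dendritic cell and monocyte development, was at 89.0 RPKM in both DM libraries and at 12.7 and 12.8 RPKM in WT HSPC, a rise of 2.76 ± 0.13. Spi1, which encodes PU.1, was at 30.3 and 29.9 RPKM in DM and at 8.17 and 9.12 RPKM in WT HSPC, a rise of 1.75 ± 0.21. Hoxa9, a homeobox factor of progenitors, rose in DM by 1.35 ± 0.12 and in Npm1c by 1.67 ± 0.12, where it was the only riser of the list and stood at 4.28 and 4.18 RPKM, against 0.965 and 1.02 RPKM in WT HSPC. Other members of the list were lower in DM. Myb, needed by blood progenitors, was at 10.4 and 10.5 RPKM in DM and at 59.8 and 58.4 RPKM in WT HSPC, and fell by 2.45 ± 0.097 (adjusted p = 9.57e-07). Gata1, the erythroid factor, was at 21.4 and 21.1 RPKM in DM and at 61.0 and 64.0 RPKM in WT HSPC, a fall by 1.54 ± 0.056 (adjusted p = 6.6e-07). Npm1c HSPC had lower Irf8, at 5.62 and 5.11 RPKM, a fall by 1.17 ± 0.13 (adjusted p = 0.000856), and Spi1 fell there by 1.08. In neutrophils Irf8 was at 1.48 and 1.52 RPKM and Spi1 at 90.9 and 88.3 RPKM.

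**Figure D3:**
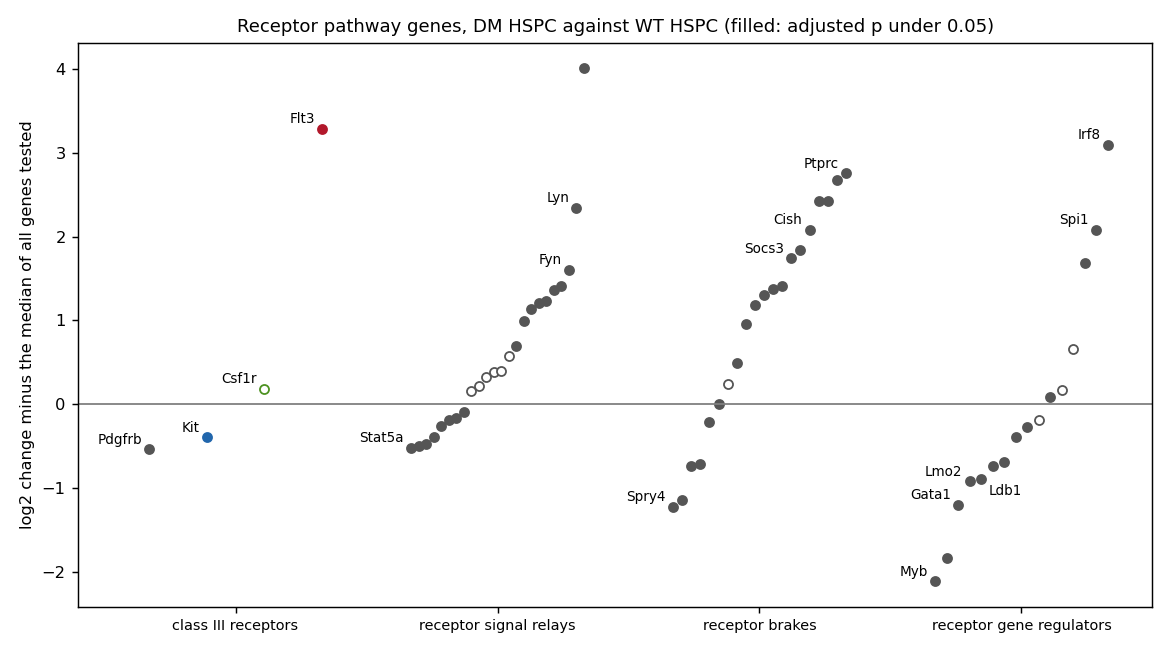
Log2 change minus the median of all tested genes in DM HSPC against WT HSPC for the receptor class and the lists of relays, brakes and regulators, ordered by value within each list (filled points have adjusted p under 0.05). Among the genes labelled by name, Flt3 at 3.29 and Irf8 at 3.10 stand highest and Myb at -2.11 stands lowest. Cish, Socs3 and Spry4 reached the minimum through 1 group only, as did the unlabelled Socs1, Socs2 and 1 relay gene, so their filled points had to differ.

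Markers of other cell types moved with the receptors. In DM HSPC, 14 of 15 dendritic cell markers lay above WT HSPC in both libraries, where 30.6% of all 16771 listed genes lay above and 53.7% below. Cd74, the MHC class II invariant chain, was at 1647 and 1645 RPKM in DM and at 11.9 and 11.6 RPKM in WT HSPC, and Xcr1, a receptor of type 1 conventional dendritic cells, was at 109 and 106 RPKM in DM and at 0.272 and 0.206 RPKM in WT HSPC. Siglech, a plasmacytoid marker that was also among the 14 above WT HSPC, was at 0.674 and 0.728 RPKM in DM. Of 14 monocyte and macrophage markers 12 lay above WT HSPC, and the list summed to 981 and 996 RPKM in DM, against 158 RPKM in WT HSPC. All 11 measured mast cell and basophil markers lay below WT HSPC, with sums of 9.22 and 12.2 RPKM in DM and 478 and 499 RPKM in WT HSPC, and Cma1, Tpsb2 and Mcpt4 were under 0.1 RPKM in DM. Erythroid markers summed to 1678 and 1700 RPKM in DM and to 2257 and 2341 RPKM in WT HSPC, with 10 of 15 below and 5 above. The 12 stem and multipotent progenitor markers summed to 84.4 and 85.1 RPKM in DM and to 87.1 and 90.6 RPKM in WT HSPC. Of these 12, 3 lay above WT HSPC in both DM libraries and 7 below, near the shares of all listed genes. Among the 7 tested, 2 rose and 4 fell, where 23.9% of all tested genes rose and 58.9% fell. Cd34 was at 3.26 and 3.37 RPKM in DM, against 15.3 and 15.7 RPKM in WT HSPC. Ly6a, of the same list, rose by 1.22 ± 0.12 (adjusted p = 4.89e-05). The part of these cell types in the Flt3 and Kit values of DM was not tested.

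In Npm1c HSPC the markers of monocytes moved with Csf1r. All 14 lay below WT HSPC, where 61.5% of all listed genes did, and their sum was 75.1 and 76.5 RPKM in Npm1c, against 158 RPKM in WT HSPC. Of the 15 dendritic cell markers 14 were below, with sums of 411 and 426 RPKM. The part of these cells in the lower Csf1r and Flt3 of Npm1c was not tested. Lymphoid-primed progenitor markers, of cells in which Flt3 is known to be high, summed to 27.3 and 28.0 RPKM in DM, 16.0 and 18.3 RPKM in Npm1c and 30.7 and 31.2 RPKM in WT HSPC. In DM 3 of the 9 measured members lay above WT HSPC in both libraries and 5 below. These counts were near the shares of all listed genes, 30.6% above and 53.7% below. Among the 5 tested, Il7r, the interleukin 7 receptor, rose by 1.43 (adjusted p = 4.52e-05), Dntt fell by 2.42 (adjusted p = 3.57e-05) and 3 did not pass. Of all tested genes 23.9% rose and 58.9% fell in DM. Il7r was at 4.39 and 4.45 RPKM in DM and at 1.33 and 1.31 RPKM in WT HSPC. Dntt, the lymphoid DNA polymerase, was at 0.582 and 0.653 RPKM in DM and at 5.34 and 5.62 RPKM in WT HSPC. B cell marker sums ran from 9.48 to 14.2 RPKM in DM and from 8.77 to 9.29 RPKM in WT HSPC. T and NK cell sums ran from 31.9 to 32.4 RPKM in DM and from 42.3 to 43.0 RPKM in WT HSPC. Yet 9 of the 10 T and NK cell markers were above WT HSPC in DM, where 30.6% of all listed genes were.

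**Figure D4:**
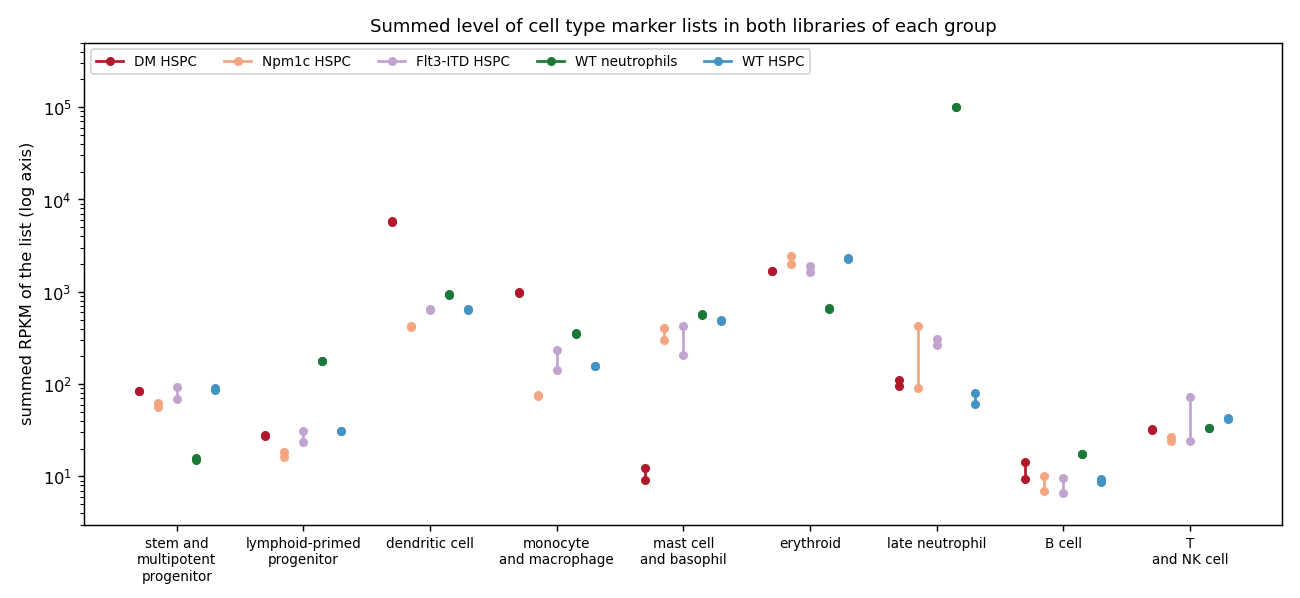
Summed RPKM (log axis) of 9 cell type marker lists, with both libraries of each group joined by a line. DM HSPC stands at 5730 and 5808 RPKM of dendritic cell markers and at 9.22 and 12.2 RPKM of mast cell and basophil markers, against 633 and 651 RPKM and 478 and 499 RPKM in WT HSPC.

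Genes with profiles like those of the receptors were ranked by the root mean square difference of centred log2(RPKM + 0.5) values over the 10 libraries, among 10174 genes. This is a description, since the libraries of a group share their cells. Closest to Flt3 was Ifi30, a lysosomal thiol reductase of antigen-presenting cells, with a difference of 0.156 and Pearson's r of 0.996. It averaged 339 RPKM in DM, 27.7 in Npm1c, 38.7 in Flt3-ITD, 11.04 in neutrophils and 45.0 in WT HSPC. Dpp4, a cell surface peptidase, followed at 0.197, then Cd2ap, an adaptor of the actin cytoskeleton, at 0.210, Pdia5, a protein disulfide isomerase, at 0.217 and Crip1, a LIM protein, at 0.280. Closest to Kit were Tbl3 (0.085), Tomm40 (0.086), Mrpl37 (0.088), Timm50 (0.089) and Tmem64 (0.090). Tomm40 and Timm50 serve protein import into mitochondria, and Tomm40 averaged 7.54 RPKM in DM, 12.1 in Npm1c, 11.6 in Flt3-ITD, 1.64 in neutrophils and 13.9 in WT HSPC. No gene came as close to Csf1r as those named for Kit. Adap1 (0.205), Pgam1, a glycolytic enzyme (0.213), Slc44a2 (0.225), Dtx4 (0.228) and Chsy1 (0.228) ranked first for Csf1r. Over the 8 HSPC libraries alone, 1 of the 5 genes remained for Flt3, 0 for Kit and 1 for Csf1r among the nearest, so these names depend on the neutrophils.

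**Figure D5:**
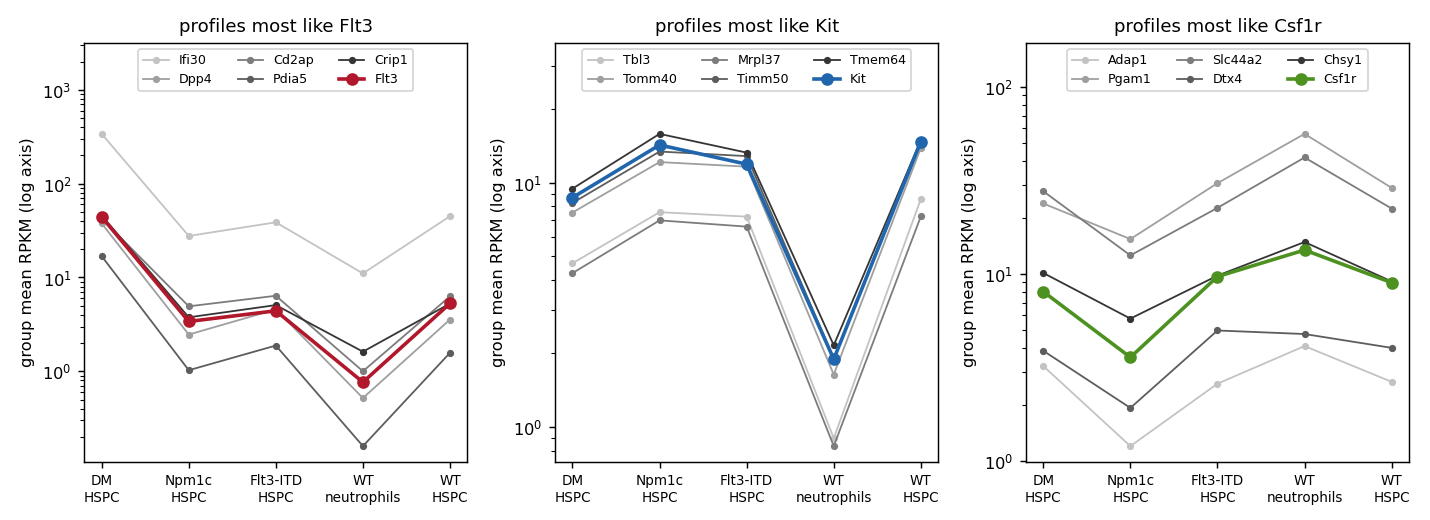
Mean RPKM per group (log axes) of each receptor, in colour, and of the 5 genes with the most alike profiles, in grey; lines join the groups for reading only. Ifi30 stands at 339 RPKM in DM and 11.04 RPKM in neutrophils, and Flt3 at 44.2 and 0.766 RPKM, while Kit and Tomm40 are lowest in neutrophils at 1.89 and 1.64 RPKM.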

How the data were processed

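The authors deposited a table of RPKM values for each of the 10 libraries. Ribosomal RNA was depleted and directional libraries were made, per the labels' protocols. STAR 2.4.0, HTSeq, DiffBind and mm10 are named per the submitters' processing notes, without a role. Which annotation, strand setting and denominator the RPKM rest on is not given in the sources used here. Whole reads were recovered from the deposited RPKM values for 16649 of 16655 genes above 0 in 2 or more libraries (tolerance 0.02 reads), and on simulated data the recovery was exact for 98.9% of 893 genes.

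RPKM values are not counts, so limma 3.58.1 (R 4.3.3) was run on log2(RPKM + 0.5) with a variance trend and Benjamini-Hochberg adjustment at 0.05. A gene was tested if 2 or more of the fitted libraries reached 1 RPKM, which left 9702 in the 8 HSPC libraries and 10174 in all 10. Flt3, Kit and Csf1r all passed that minimum in both fits. With the added 0.5, fold changes of low genes come out too small. In simulated data for DM against WT HSPC (9035 genes), 99.0% of changes of log2 size 1 and 100% of size 2 were called. The simulation gave every gene and group the same assumed spread, not that of the Npm1c and Flt3-ITD pairs. It also changed few genes, whereas 82.8% of tested genes passed in the data. These rates therefore do not measure the power of the test in these libraries. P-values measure the spread between libraries of a group, with n = 2 a group, pooled over all groups of the fit. The standard error of DM against WT HSPC thus also rests on the Npm1c and Flt3-ITD pairs. Figures were made in matplotlib 3.10.9. Tables were made in pandas 2.3.3, SciPy 1.17.1 and NumPy 2.4.6 under Python 3.11.15.

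The members and lists were chosen with earlier results of these data known. Of each list, up to 4 members with the smallest adjusted p in a comparison are named, with all members of the receptor class and the ligands, and, for marker lists, members near 0. Cd34, Siglech, Mcpt8, Dntt, Il7r and Socs1 are also named for their known roles, chosen after their values were seen. The values of 1 relay gene are not reported here. The gene lists hold 5 class III receptors, 4 ligands, 25 relays, 21 brakes, 20 regulators and 9 sets of cell type markers. Alternatives were another pseudocount, filter, scaling, set of libraries, replicate block, Y-linked term and voom on the recovered reads.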

Additional observations from a re-analysis of the deposited data

Results flagged for a closer look

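The change that goes with the Npm1 allele and Mx1-Cre differed between mice with and without the Flt3-ITD allele for all 3 receptors, by the interaction term. It was 3.77 ± 0.17 (log2, standard error) for Flt3, adjusted p = 3.45e-06 with limma. Flt3 was higher in DM than in Flt3-ITD HSPC by 3.20 and changed by -0.57 in Npm1c against WT HSPC, with both libraries on their side in each. Of all listed genes, 61.5% lay below both WT HSPC libraries in both Npm1c libraries. For Csf1r the interaction was 0.99 ± 0.23 (adjusted p = 0.0079), with changes of -0.22 in DM against Flt3-ITD and -1.21 in Npm1c against WT HSPC. For Kit it was -0.38 ± 0.11 (adjusted p = 0.0152), with changes of -0.43 and -0.04. The call for Kit was lost with a Y-linked term (adjusted p = 0.0582), without WT HSPC replicate 2 (0.0543) and without DM replicate 1 or 2 (0.0505 and 0.0539). In the same test 66.8% of genes passed.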

How the results depend on the processing

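Among the alternative values for the receptors, 398 kept their direction and side of the threshold, 17 passed it newly, 12 no longer passed and 8 turned sign. Flt3 in DM kept both against WT HSPC (2.85 to 3.28), Npm1c (3.36 to 3.70) and Flt3-ITD (2.99 to 3.41), under all settings run. Csf1r in DM against WT HSPC was 0.18 after median-of-ratios scaling and passed at -0.15 with only the compared groups or without both libraries with Y-linked reads (1 library left out: -0.16 to -0.14). Kit in Npm1c against WT HSPC turned to 0.24 (median-of-ratios) and 0.21 (equal listed-gene totals). Against WT HSPC in Flt3-ITD, Flt3 passed at -0.35 with a Y-linked term and -0.46 without both Y-linked libraries (left out singly: -0.46 to -0.044). Kit there missed at -0.13, -0.15 and, with only the compared groups, -0.30 (-0.41 to -0.19), and Csf1r turned to -0.084 with the Y-linked term and -0.22 without both (-0.22 to 0.37). Csf1r in DM against Flt3-ITD turned to 0.074 without both (-0.52 to 0.074). In Npm1c against Flt3-ITD, Flt3 had -0.53 to -0.11, Kit passed at 0.37 and 0.35 under the scalings, 0.26 with the Y-linked term, 0.27 with voom and 0.38 without both (0.14 to 0.37), and Csf1r missed at -1.29 with only these groups. The Kit interaction missed at -0.28 with the Y-linked term (-0.50 to -0.27). A lone library is assumed to vary like the other groups, and causes were not tested. In Flt3-ITD against WT HSPC 3213 genes passed, against 1744 (median-of-ratios), 1772 (listed-gene totals), 837 (only these groups) and 6573 (without both Y-linked libraries), and 482 or 657 without either WT HSPC library, 2051 or 2048 without either DM library and 5666 without Flt3-ITD replicate 1. In Npm1c against Flt3-ITD 1697 passed, against 1115 (no filter), 51 (only these groups) and 2907 (Y-linked term), and 356 to 4761 with 1 library left out, where each library but Flt3-ITD replicate 1 moved the count by over 1.5 times. In Npm1c against WT HSPC 5880 passed, against 3720 and 3732 under the scalings, 3407 and 3423 without either WT HSPC library and 3730 without Npm1c replicate 1. Same-numbered replicates share no stated origin (correlations of deviations -0.11 to 0.11). With replicate number as a block no receptor changed its call, and Flt3 in DM against WT HSPC stayed at 2.95 (adjusted p = 3.78e-06). The planned edgeR and DESeq2 fits on recovered reads were not run, since RPKM values are not counts, and voom was added after seeing the data, as was the fit without both Y-linked libraries. Neutrophil Flt3, with 218 and 269 reads, is the value most limited by depth.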

Other observations

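For most genes, the length implied by the deposited RPKM values was close to the sum of all annotated transcripts of the gene, within 5% for 67.9% of genes, against 10.3% for its merged exons. Over 11263 genes the median ratio of implied length to summed transcript length was 0.995, and to merged exon length 1.64. For 744 genes with 8 transcripts the median ratio to merged exons was 2.07, and for 958 genes with 1 transcript it was 0.998. Kit, with 8 transcripts in GENCODE M21, had an implied length of 18908 bases against 8911 bases of merged exons, and Flt3, with 2 transcripts, 7574 against 6176 bases. Csf1r had 8528 bases, against 5774 of merged exons and 12263 summed over 6 transcripts. Such a length is the same in every library, so it bears on levels between genes and not on changes of a gene between groups, apart from the added 0.5 RPKM.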
